A study of Homo sapiens with 45 samples.

Results

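The genes described here are 10 oxygen-sensitive histone lysine demethylases of the JmjC family, KDM2A, KDM2B, KDM3A, KDM3B, KDM4A, KDM4B, KDM4C, KDM5A, KDM5B and KDM6B. They were named by their symbols under a rule that uses no expression threshold, although earlier results of these data were known when the set was drawn up, and they are 10 of the 60624 genes counted. All 10 were found in each of the 4 count tables and passed the filter on low counts in each. RNA sequencing was done on T47D, an oestrogen receptor positive luminal breast cancer cell line, in 45 libraries that form 15 groups of 3. The study asked which genes hypoxia induces with the help of ZHX2, a zinc finger and homeobox transcription factor, and of its phase separation. The hairpin experiment had 3 groups: normoxic and hypoxic cells with a control hairpin (shCtrl), and hypoxic cells with a hairpin that targets ZHX2 (shZHX2). The other 3 experiments were done in hypoxia throughout, controls included, and have no normoxic group.

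The hexanediol experiment compared untreated cells (Ctrl) with cells given 0.5% or 1% 1,6-hexanediol, an alcohol that dissolves many protein condensates, for 24 h. The re-expression experiment had shCtrl cells with a vector, and shZHX2 cells given either a vector or a ZHX2 form, of which there were 3 (WT, PA and SA). The labels do not say what PA and SA change. The guide experiment had a pair labelled with the guide alone (sgCtrl and sgZHX2) and a pair whose labels name a tet-on system (teton_control and teton_sgZHX2). The labels give no inducer or clone for them and no oxygen level or length of hypoxia. Cells were infected with lentivirus and selected with antibiotic, all in this single cell line. The labels do not say that the 3 libraries of a group came from separate cultures, and p-values then reflect only how these libraries vary, which may be technical variation.

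JmjC demethylases remove methyl groups from lysines of histone tails in a reaction that uses oxygen, iron(II) and 2-oxoglutarate. When oxygen is scarce some of these enzymes lose activity, and transcription of several of their genes is known to be raised by the hypoxia-inducible factor HIF. KDM3A and KDM4B are well-known HIF targets, and KDM4B also works with the oestrogen receptor in breast cancer cells. The files measure RNA, not enzyme activity or histone marks.

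The gene models, all protein coding, are those of GENCODE release 29 on GRCh38. The H3K36 demethylases are KDM2A (ENSG00000173120) at chr11:67119269-67258087 on the plus strand and KDM2B (ENSG00000089094) at chr12:121429097-121581015 on the minus strand. The H3K9 demethylases are KDM3A (ENSG00000115548) at chr2:86440647-86492716 on the plus strand and KDM3B (ENSG00000120733) at chr5:138352596-138437028 on the plus strand. The KDM4 genes are KDM4A (ENSG00000066135) at chr1:43650158-43705515 on the plus strand, KDM4B (ENSG00000127663) at chr19:4969113-5153595 on the plus strand and KDM4C (ENSG00000107077) at chr9:6720863-7175648 on the plus strand. The H3K4 demethylases are KDM5A (ENSG00000073614) at chr12:280129-389454 on the minus strand and KDM5B (ENSG00000117139) at chr1:202724495-202809470 on the minus strand, and the H3K27 demethylase is KDM6B (ENSG00000132510) at chr17:7839904-7854796 on the plus strand.

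Total counts ran from 14111216 to 27217814 per library. ZHX2 itself was at 16.9 ± 1.24 CPM (counts scaled to a common library total, mean ± SD, n = 3) in normoxic shCtrl cells, 18.8 ± 2.64 CPM in hypoxic shCtrl cells and 5.15 ± 1.53 CPM in hypoxic shZHX2 cells. In the re-expression experiment it was at 32.0 ± 1.99 CPM in shCtrl cells, 6.86 ± 0.545 CPM in shZHX2 cells with vector, and 72.3, 54.0 and 80.5 CPM on average with the WT, PA and SA forms. In the hexanediol experiment ZHX2 was at 12.0 ± 0.706 CPM in control cells, 18.3 ± 2.24 CPM at 0.5% and 17.7 ± 1.66 CPM at 1%. In the guide experiment the 3 libraries of sgCtrl ranged from 43.8 to 46.6 CPM and those of sgZHX2 from 47.9 to 51.3 CPM. The teton_control libraries ranged from 45.7 to 49.4 CPM and those of teton_sgZHX2 from 48.3 to 50.9 CPM. The transcript was thus not lower in either group whose label names the ZHX2 guide. Reads alone do not show whether a guide damaged the protein. All 9 luminal markers passed the filter in each table, while the summed level of 3 basal markers stayed at or below 4.92 CPM, of 3 endothelial markers at or below 3.42 CPM and of 4 leukocyte markers at or below 9.85 CPM. The summed level of 5 fibroblast markers was higher, up to 72.3 CPM in the hairpin experiment. In the hexanediol experiment it was 38.7 to 52.6 CPM, and all 5 passed the filter there. In these bulk samples fewer cells of a type and less RNA per cell cannot be told apart.

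Start regions of 4 members are shown because they stand at the ends of the uncorrected responses described below: KDM4B had the largest rise of the 10 in hypoxia, KDM5A the largest fall, and KDM3A and KDM4C fell most with the ZHX2 guide. Each is the RefSeq window (GRCh38.p14) from 250 bases before to 50 bases after an annotated start, read 5′ to 3′ on the gene's strand. Capitals mark ACGTG or GCGTG, the core of the hypoxia response element, found on either strand (CACGT or CACGC on the other). KDM3A is at chr2:86441121-86441420 on the plus strand, KDM4B at chr19:4968863-4969162 on the plus strand, KDM4C at chr9:6757723-6758022 on the plus strand and KDM5A at chr12:389271-389570 on the minus strand.
KDM3A: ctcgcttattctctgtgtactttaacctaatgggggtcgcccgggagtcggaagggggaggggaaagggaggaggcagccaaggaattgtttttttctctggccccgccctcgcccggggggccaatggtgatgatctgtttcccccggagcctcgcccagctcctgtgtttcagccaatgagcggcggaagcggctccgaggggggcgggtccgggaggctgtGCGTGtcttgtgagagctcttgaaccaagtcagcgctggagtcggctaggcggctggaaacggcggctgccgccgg
KDM4B: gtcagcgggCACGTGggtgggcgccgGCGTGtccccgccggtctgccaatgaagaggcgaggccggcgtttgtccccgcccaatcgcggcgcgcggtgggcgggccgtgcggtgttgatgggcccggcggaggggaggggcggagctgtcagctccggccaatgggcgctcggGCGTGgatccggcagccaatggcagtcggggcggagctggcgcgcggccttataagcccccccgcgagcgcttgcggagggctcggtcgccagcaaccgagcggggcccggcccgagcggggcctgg
KDM4C: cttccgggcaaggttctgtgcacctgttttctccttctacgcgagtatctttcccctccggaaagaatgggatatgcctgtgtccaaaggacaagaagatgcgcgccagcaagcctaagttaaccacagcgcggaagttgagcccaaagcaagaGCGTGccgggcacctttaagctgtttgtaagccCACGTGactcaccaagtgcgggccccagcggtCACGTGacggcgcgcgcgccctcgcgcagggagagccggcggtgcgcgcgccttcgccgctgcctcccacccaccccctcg
KDM5A: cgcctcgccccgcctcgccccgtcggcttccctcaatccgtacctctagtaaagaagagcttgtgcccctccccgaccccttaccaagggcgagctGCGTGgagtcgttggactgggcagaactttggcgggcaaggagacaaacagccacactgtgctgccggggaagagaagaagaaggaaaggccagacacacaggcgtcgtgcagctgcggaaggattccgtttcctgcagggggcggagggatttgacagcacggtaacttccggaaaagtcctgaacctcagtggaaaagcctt
KDM4B held 4 matches in 3 separate stretches, KDM4C 5 matches in 3 stretches, and KDM3A and KDM5A 1 match each. Facing matches that overlap count as a single stretch. Of the 10 members 9 had a match in at least 1 of their 16 windows, KDM3B being the exception. Counted by window, 13 of the 16 had a match, and 48.4% of 35116 RefSeq windows of 300 bases had one. The windows of KDM3A overlap and hold the same match. GC content of the 16 windows ran from 53.0% to 84.0%, and the RefSeq windows were not matched for it. A match is a description of the letters and not a bound site.

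Levels of different genes were compared per kilobase of exon, within a table. Length was the union of all annotated exons of a gene, not the length of the expressed transcript, and the order depends on it. It ran from 5.17 kb in KDM4A to 25.9 kb in KDM5B, which had the highest CPM of the members in sgCtrl cells (264). KDM4A shares 40.2% of its exonic bases with a second gene model. In hypoxic shCtrl cells of the hairpin experiment the mean CPM per kb were, in order, KDM4B 47.9, KDM2A 23.1, KDM6B 11.1, KDM3B 5.39, KDM2B 5.25, KDM5B 4.44, KDM4A 1.83, KDM4C 0.698, KDM3A 0.614, KDM5A 0.325. KDM3B and KDM2B overlapped in that order, as did KDM4C and KDM3A. In the untreated hypoxic cells of the hexanediol experiment the order was KDM2A 24.5, KDM3B 18.4, KDM5B 10.6, KDM4B 10.5, KDM4A 10.3, KDM3A 8.88, KDM5A 7.69, KDM4C 5.20, KDM2B 4.58, KDM6B 3.09, with KDM5B, KDM4B and KDM4A overlapping one with the next. In shCtrl cells with vector it was KDM2A 16.9, KDM3B 13.1, KDM6B 12.6, KDM4B 9.59, KDM3A 8.07, KDM5B 5.56, KDM4C 4.05, KDM4A 3.41, KDM2B 1.82, KDM5A 0.898, with no overlap between neighbours. In sgCtrl cells it was KDM3B 22.5, KDM2A 21.5, KDM3A 19.0, KDM6B 12.3, KDM5B 10.2, KDM4B 8.22, KDM4A 5.93, KDM4C 5.86, KDM5A 3.12, KDM2B 2.94, and there KDM4A and KDM4C overlapped. KDM2A, a demethylase of H3K36 that binds unmethylated CpG islands, was first or next to first in all of these. KDM3A was near the bottom in the hairpin experiment and among the upper 6 in the other 3. The tables were not normalised together, and across 13019 genes the log2 ratio of hypoxic shCtrl levels, hairpin over re-expression table, ran with GC content (Spearman rho 0.512, a description across genes, which are not independent replicates).

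Hypoxia raised 4 of the 10 members and lowered 3, which is 7 of 10 at an adjusted p under 0.05 in edgeR's quasi-likelihood test with Benjamini-Hochberg adjustment, the rule for every call below. The same call was made for 79.9% of the 14903 genes tested, 43.1% higher and 36.8% lower, so the share is near the background. The median log2 fold change of the members was -0.018 and that of all genes 0.12. The H3K9 and H3K36 demethylase KDM4B and the H3K27 demethylase KDM6B rose (2.54-fold and 2.09-fold), and the H3K4 demethylase KDM5A fell 5.11-fold. The libraries differed in base composition: across 14816 genes the log2 fold change rose with GC content (rho 0.694) and fell with length (rho -0.311), and mitochondrial genes took 4.55% to 4.76% of counts in normoxia and 9.12% to 9.57% in hypoxia. Fold changes of the members are therefore also given with a joint correction for GC content and length (called the corrected value), and the part of these differences in the results was not tested.

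**Figure D1:**
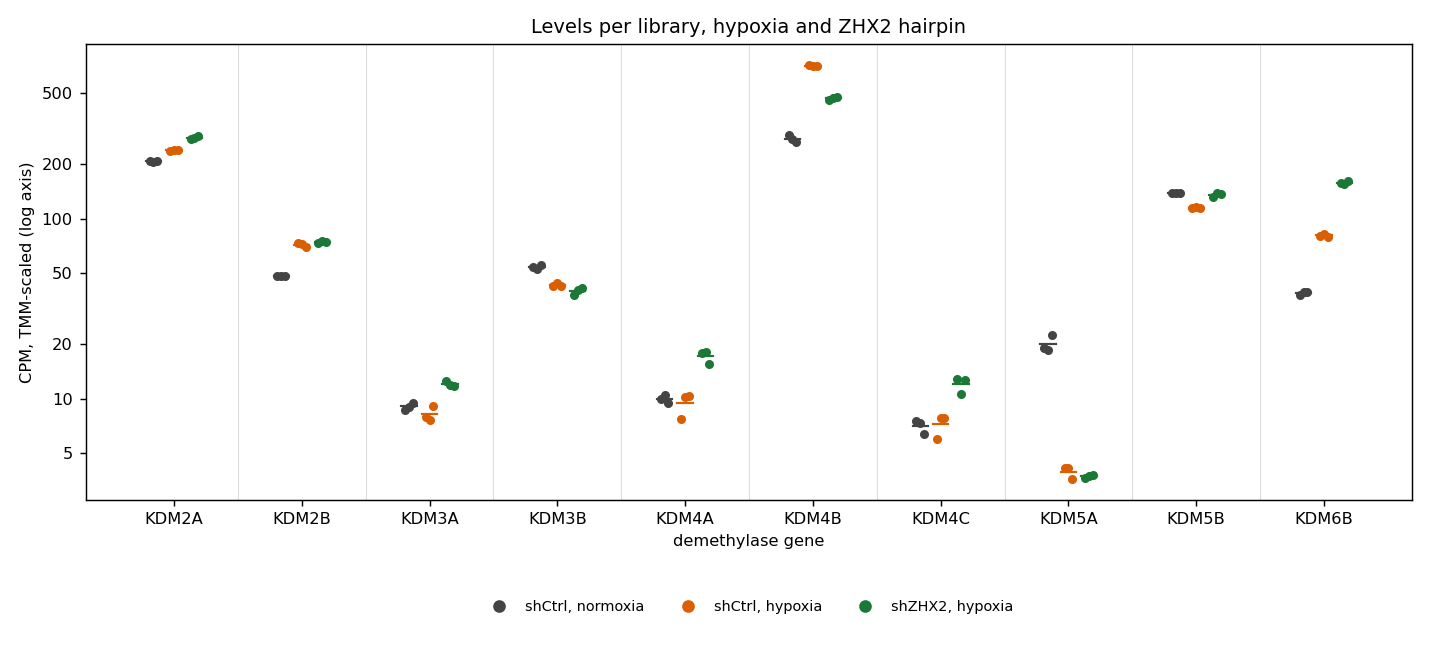
Level of each demethylase gene (CPM with TMM-scaled library sizes, log axis) in the 9 libraries of the hairpin experiment. Points are libraries and bars are group means. KDM4B and KDM6B rise and KDM5A drops from normoxia to hypoxia, and KDM6B rises again with the ZHX2 hairpin while KDM4B comes part of the way down.

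Among the H3K36 demethylases, KDM2A was at 209, 207 and 208 CPM in normoxia and 238, 241 and 242 CPM in hypoxia (log2 fold change of 0.21, SE 0.030, adjusted p = 7.36e-09, corrected 0.14). KDM2B, which also belongs to a Polycomb complex, went from 48.0, 47.8 and 47.7 CPM to 73.6, 71.8 and 69.1 CPM (log2 fold change of 0.58, SE 0.048, adjusted p = 6.72e-17, corrected 0.22). In both, every hypoxic library lay above every normoxic one. With scaling by library size alone KDM2A turned to -0.28 (adjusted p = 3.80e-13) and KDM2B was at 0.095 (adjusted p = 0.0666), on a scale on which the median of all genes moved by -0.48.

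Of the H3K9 demethylases, KDM3A was at 8.70, 9.04 and 9.45 CPM in normoxia and 7.95, 7.65 and 9.12 CPM in hypoxia, with overlapping groups (log2 fold change of -0.14, SE 0.11, adjusted p = 0.264). Its corrected value was 1.13 (adjusted p = 2.79e-13), and with library size alone it was called lower (-0.62, adjusted p = 1.94e-06), so the direction and the call of this HIF target depended on the scaling. GC content is 42.5% in the longest KDM3A transcript. KDM3B, its close relative, fell from 53.8, 52.7 and 55.0 CPM to 42.3, 44.0 and 42.3 CPM without overlap (log2 fold change of -0.33, SE 0.055, adjusted p = 3.36e-07, corrected -0.40). After correction the pair pointed in opposite directions, and the difference between them was not tested.

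The KDM4 enzymes act on methylated H3K9 and H3K36. KDM4B was at 289.7, 276 and 267 CPM in normoxia and 715, 699 and 703 CPM in hypoxia. All hypoxic libraries were far above the normoxic ones, a 2.54-fold rise (log2 fold change of 1.35, SE 0.028, adjusted p = 1.81e-45, corrected 0.90). KDM4A had 9.96, 10.5 and 9.45 CPM and 7.75, 10.2 and 10.4 CPM, with overlap and no call (log2 fold change of -0.071, SE 0.11, adjusted p = 0.558), but was called lower after correction (-0.30, adjusted p = 0.0121). KDM4C had 7.49, 7.29 and 6.37 CPM and 5.99, 7.78 and 7.85 CPM, also overlapping (log2 fold change of 0.035, SE 0.13, adjusted p = 0.804), and was called higher after correction (0.49, adjusted p = 5.86e-04). Counts of KDM4A are uncertain, because 40.2% of its exonic bases are shared with a second protein-coding gene model on the same strand and 8.97% with the antisense gene KDM4A-AS1.

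KDM5A, an H3K4 demethylase reported as an oxygen sensor, had 19.1, 18.7 and 22.5 CPM in normoxia and 4.10, 4.11 and 3.59 CPM in hypoxia. The groups lay far apart, a 5.11-fold fall (log2 fold change of -2.35, SE 0.12, adjusted p = 5.06e-26) that was smaller after correction (-1.18, adjusted p = 5.08e-13). KDM5B, which acts on the same mark, went from 138, 138 and 139 CPM to 115, 116 and 114 CPM (log2 fold change of -0.27, SE 0.036, adjusted p = 1.45e-09), and this fall turned into a rise after correction (0.80, adjusted p = 1.03e-27). KDM6B, which removes the Polycomb mark H3K27 methylation, went from 37.5, 39.1 and 38.9 CPM to 80.2, 82.2 and 79.4 CPM, a 2.09-fold rise without overlap (log2 fold change of 1.07, SE 0.045, adjusted p = 3.61e-30, corrected 0.36). GC content of the longest transcript was 61.2% in KDM4B and 62.4% in KDM6B, against 42.9% in KDM5A and 44.4% in KDM5B. After correction 7 members were called higher (KDM2A, KDM2B, KDM3A, KDM4B, KDM4C, KDM5B and KDM6B) and 3 lower (KDM3B, KDM4A and KDM5A), beside 33.5% and 37.2% of all genes.

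Among other enzymes of the same chemistry, 4 of the 8 dioxygenases of oxygen sensing and DNA were higher and 4 lower (median 0.54). After correction 4 were higher and 2 lower (median 0.52). Those that rose included the HIF prolyl hydroxylases EGLN3 (2.47 ± 0.10, corrected 2.51) and EGLN1 (1.60 ± 0.11, corrected 2.41). These oxygen sensors are themselves HIF targets. Of 19 other JmjC genes 7 were higher and 8 lower (median -0.015), which became 4 higher and 10 lower after correction (median -0.46), and the largest changes were falls of JMJD1C, a relative of KDM3A (-2.79 ± 0.11, corrected -1.29), of the ribosomal oxygenase RIOX2 (-2.54 ± 0.14, corrected -1.46) and of the H3K27 demethylase KDM6A (-1.51 ± 0.11, corrected -0.61). The 5 H3K36 methyltransferases, which write the mark that KDM2 and KDM4 enzymes erase, were lower in 5 of 5 cases (median -2.13), and after correction 3 were lower and 1 higher (median -1.15). Of these ASH1L (-2.43 ± 0.085, corrected -1.41), SETD2 (-2.29 ± 0.11, corrected -1.15) and NSD1 (-2.13 ± 0.069, corrected -1.57) kept the direction after correction, while NSD3 was at -1.48 ± 0.078 and corrected at -0.13 (adjusted p = 0.145). The gene called higher after correction was NSD2, named here after its values were seen. In the H3K27 methyltransferase complex 3 of 4 genes were lower and 0 higher (median -1.61). After correction 2 were lower and 0 higher (median -0.42). EZH2, its catalytic subunit, was at -1.92 ± 0.10 (corrected -1.04). Genes that make or use 2-oxoglutarate, succinate and fumarate included 4 that rose and 7 that fell among 13. FH, fumarate hydratase, fell (-1.83 ± 0.066, corrected -1.19).

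With the ZHX2 hairpin in hypoxia, 6 of the 10 members rose and 1 fell, beside 66.8% of all genes called (33.6% higher and 33.2% lower). The median was 0.24 for the members and 0.022 for all genes. KDM6B rose further, from 80.2, 82.2 and 79.4 CPM with shCtrl to 157, 155 and 162 CPM with shZHX2, a 1.96-fold rise (log2 fold change of 0.97, SE 0.041, adjusted p = 1.24e-29, corrected 1.19). KDM4B went the other way, from 715, 699 and 703 CPM to 458, 469.8 and 472 CPM, a 1.51-fold fall (log2 fold change of -0.60, SE 0.028, adjusted p = 1.04e-27, corrected -0.47). Neither pair of groups overlapped, and the shZHX2 libraries of KDM4B were still above its normoxic ones. KDM4B was thus the only member called higher in hypoxia and lower with the hairpin; both comparisons use the same hypoxic shCtrl libraries.

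The KDM4 relatives of KDM4B rose with the hairpin. KDM4A reached 18.0, 18.2 and 15.6 CPM (log2 fold change of 0.87, SE 0.11, adjusted p = 1.94e-10, corrected 0.88) and KDM4C reached 12.8, 10.6 and 12.8 CPM (log2 fold change of 0.74, SE 0.12, adjusted p = 4.08e-07, corrected 0.64). KDM3A reached 12.6, 11.9 and 11.8 CPM (log2 fold change of 0.55, SE 0.11, adjusted p = 1.95e-05, corrected 0.37). In these 3 genes every shZHX2 library was above every hypoxic shCtrl one. Smaller rises were seen in KDM2A (278, 278 and 289 CPM, log2 fold change of 0.23, SE 0.029, adjusted p = 5.30e-10, corrected 0.19) and KDM5B (132, 138 and 137 CPM, log2 fold change of 0.24, SE 0.036, adjusted p = 5.17e-08, corrected 0.025, adjusted p = 0.562). KDM2B (73.1, 75.2 and 74.2 CPM, log2 fold change of 0.054, SE 0.047, adjusted p = 0.312), KDM3B (37.6, 40.4 and 41.3 CPM, log2 fold change of -0.11, SE 0.057, adjusted p = 0.0904) and KDM5A (3.64, 3.70 and 3.75 CPM, log2 fold change of -0.087, SE 0.16, adjusted p = 0.638, corrected -0.26) were not called, and the 95% interval of KDM5A, -0.40 to 0.23, leaves room for a change in either direction. After correction KDM2B was called higher (0.12) and KDM3B lower (-0.14). With library size alone the median of all genes moved by 0.23 and KDM3B by as much, to 0.13. Summed luminal marker levels were 22580 to 24330 CPM in normoxia, 58545 to 59226 CPM in hypoxia with shCtrl and 27352 to 27626 CPM with shZHX2, and mitochondrial shares with shZHX2 were 11.9% to 12.4%; the part of either in the result was not tested. The fibroblast markers, of which only COL1A1 passed the filter, summed to 33.3 to 36.7 CPM, 46.96 to 51.8 CPM and 69.4 to 72.3 CPM in these 3 groups.

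Writers of H3K4 methylation also rose with the hairpin, 6 of 7 higher and 1 lower (median 0.58). Examples are KMT2C (0.94 ± 0.11, corrected 0.76) and KMT2B (0.58 ± 0.044, corrected 0.78). Of the other JmjC genes 6 of 19 were higher and 5 lower. JARID2, a Polycomb partner without demethylase activity, rose (1.43 ± 0.10, corrected 1.42) and HR, the hairless protein, fell (-1.44 ± 0.034, corrected -1.19). The DNA demethylase TET3 (1.34 ± 0.059, corrected 1.30) and EGLN3 (0.95 ± 0.072, corrected 0.91) rose. IDH2, the mitochondrial enzyme that makes 2-oxoglutarate, fell (-1.22 ± 0.025, corrected -1.08). Of the 13 genes of 2-oxoglutarate, succinate and fumarate metabolism 5 were higher and 4 lower.

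In the hexanediol experiment the second library of each treated group stood apart from the other 2, across all genes and for several members. At 0.5% the chi-square per degree of freedom between libraries was 25.0 and 23.1 in pairs with it and 3.10 without it. At 1% the values were 8.46 and 8.58 with it and 1.90 without it. Leaving both second libraries out was tried as an alternative chosen after seeing the data. It gained 4 calls among the 30 fold changes and lost none. Values without these libraries are given below for KDM3A, KDM4B, KDM4C and KDM5B and for the KDM2A call that was gained. The common coefficient of variation was 10.2% here and 2.81% to 4.15% in the other tables, so smaller changes could be called there. At 0.5% hexanediol 3 of the 10 members rose and 1 fell, beside 39% of the 16840 genes tested, 19.4% higher and 19.6% lower. At 1%, 5 rose and 3 fell, beside 62.5% of genes, 30.2% higher and 32.3% lower. Between the doses 2 were higher and 2 lower at 1%, beside 56% of genes, 28.3% higher and 27.7% lower. The 2 doses share their control libraries. Library size alone moved the median of all genes by 0.12 at 0.5% and by 0.18 at 1%.

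**Figure D2:**
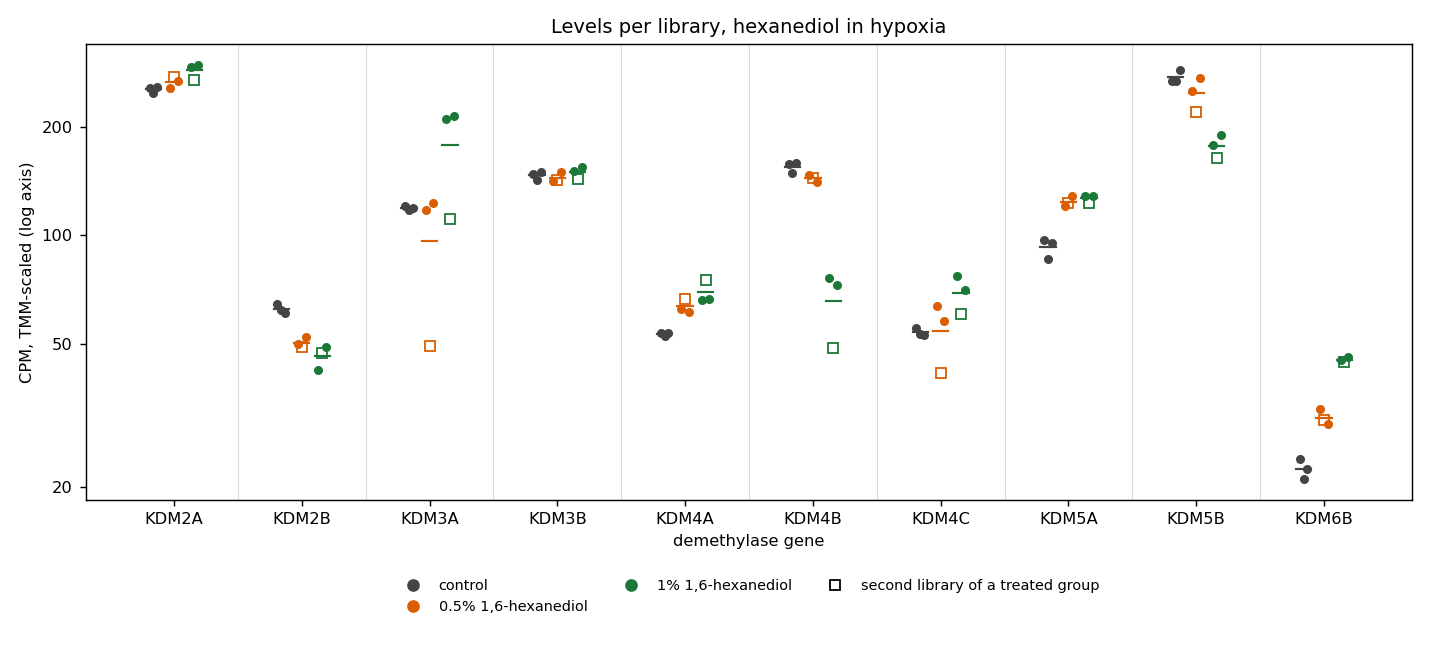
Level of each demethylase gene (CPM with TMM-scaled library sizes, log axis) in the 9 libraries of the hexanediol experiment. Points are libraries, open squares are the second library of a treated group and bars are group means. KDM6B climbs with dose, KDM4B drops at 1%, and the second libraries of KDM3A lie at 49.4 and 111 CPM, well below the others of their groups.

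KDM6B had 23.9, 21.1 and 22.4 CPM in control cells, 32.9, 30.6 and 29.8 CPM at 0.5% and 45.2, 44.3 and 45.9 CPM at 1%. The groups did not overlap and the level was higher at each dose. It rose at 0.5% (log2 fold change of 0.47, SE 0.083, adjusted p = 4.25e-04), at 1% (log2 fold change of 1.01, SE 0.081, adjusted p = 6.86e-08) and from 0.5% to 1% (log2 fold change of 0.54, SE 0.079, adjusted p = 4.31e-05), with corrected values of 0.52, 1.37 and 0.85.

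KDM4B had 157, 149 and 159 CPM in control cells, 147, 144 and 140.2 CPM at 0.5% and 76.2, 48.6 and 72.8 CPM at 1%. The drop came with the higher dose: it was not called at 0.5% (log2 fold change of -0.11, SE 0.13, adjusted p = 0.555, corrected -0.12), and at 1% it was a 2.35-fold fall (log2 fold change of -1.24, SE 0.13, adjusted p = 4.64e-06, corrected -0.92). From 0.5% to 1% it fell as well (log2 fold change of -1.13, SE 0.13, adjusted p = 1.35e-05, corrected -0.80). Without the 2 second libraries the fall at 1% was -1.06 (adjusted p = 1.87e-15) and that from 0.5% to 1% was -0.95 (adjusted p = 1.54e-13). KDM5B, 269, 267 and 288 CPM in control cells, 252, 219.5 and 273 CPM at 0.5% and 178, 164 and 189.8 CPM at 1%, fell at 1% (log2 fold change of -0.63, SE 0.086, adjusted p = 1.40e-05, corrected -0.80) and not detectably at 0.5% (log2 fold change of -0.15, SE 0.085, adjusted p = 0.195), although the corrected value at 0.5% was called (-0.24, adjusted p = 0.0271). Without the second libraries KDM5B was at -0.066 at 0.5% (adjusted p = 0.332) and at -0.58 at 1% (adjusted p = 5.26e-10).

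KDM3A had 121, 117 and 119 CPM in control cells, 117, 49.4 and 123 CPM at 0.5% and 209.8, 111 and 215 CPM at 1%. At each dose the second library was the lowest by far, and with all libraries no comparison was called (log2 fold change of 0.58, SE 0.40, adjusted p = 0.246, corrected 0.34 at 1%, and log2 fold change of 0.89, SE 0.40, adjusted p = 0.104, corrected 0.70 from 0.5% to 1%). Without the 2 second libraries the value at 1% was 0.83 (adjusted p = 2.81e-14), from 0.5% to 1% it was 0.82 (adjusted p = 5.92e-13) and at 0.5% it was 0.012 (adjusted p = 0.872). Leaving out the second 1% library alone gave 1.13 from 0.5% to 1% (adjusted p = 0.047), and the fit with the replicate block gave 0.91 (adjusted p = 0.0472). The labels do not say that a number marks a shared culture. KDM4C showed the same second libraries low, with 55.1, 53.1 and 52.9 CPM, 63.5, 41.4 and 57.7 CPM and 77.0, 60.3 and 70.3 CPM. It was called at 1% (log2 fold change of 0.36, SE 0.14, adjusted p = 0.0336, corrected 0.25, adjusted p = 0.112) and from 0.5% to 1% (log2 fold change of 0.35, SE 0.14, adjusted p = 0.0431, corrected 0.29), the latter with overlapping groups. Without the 2 second libraries it was also called at 0.5%, with 0.17 (adjusted p = 0.0222), and was at 0.46 at 1% (adjusted p = 2.08e-07).

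KDM5A had 97.2, 86.2 and 95.5 CPM in control cells, 121, 123 and 128 CPM at 0.5% and 129, 123 and 129 CPM at 1%, a rise at both doses without overlap (log2 fold change of 0.41, SE 0.070, adjusted p = 3.14e-04, corrected 0.36, and log2 fold change of 0.45, SE 0.070, adjusted p = 5.64e-05, corrected 0.22). KDM4A, at 53.5, 52.5 and 53.5 CPM, 62.4, 66.7 and 61.3 CPM and 66.2, 75.3 and 66.6 CPM, likewise rose at 0.5% (log2 fold change of 0.25, SE 0.075, adjusted p = 0.0144, corrected 0.30) and at 1% (log2 fold change of 0.38, SE 0.074, adjusted p = 3.95e-04, corrected 0.43). KDM2B, at 64.3, 62.0 and 60.8 CPM, 49.9, 48.8 and 52.2 CPM and 42.2, 47.2 and 49.0 CPM, fell at 0.5% (log2 fold change of -0.31, SE 0.076, adjusted p = 0.00484, corrected -0.33) and at 1% (log2 fold change of -0.43, SE 0.076, adjusted p = 1.61e-04, corrected -0.20). The step from 0.5% to 1% was not called for any of these 3 genes. With library size alone the value of KDM2B at 0.5% was -0.19 (adjusted p = 0.051). KDM2A, at 256, 249 and 258 CPM, 257, 274 and 269 CPM and 293, 271 and 298 CPM, was called higher at 1% (log2 fold change of 0.18, SE 0.066, adjusted p = 0.0302, corrected 0.19) and, without the second libraries only, from 0.5% to 1% (0.17, adjusted p = 0.00871). KDM3B, at 148, 143 and 149.6 CPM, 141, 142 and 149.7 CPM and 151, 143 and 155 CPM, was not called, with 95% intervals of -0.16 to 0.12 at 0.5% and -0.11 to 0.17 at 1%. The calls of KDM2A and KDM4C at 1% were lost without any 1 of the 3 control libraries or without the first or the third 1% library, with values of 0.15 to 0.18 for KDM2A and 0.29 to 0.38 for KDM4C. From 0.5% to 1% the call of KDM4C was lost without the second or the third 0.5% library or the first or the third 1% library, with values of 0.19 to 0.38.

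The luminal markers moved with dose: their summed level was 25084 to 27903 CPM in control cells, 10854 to 15452 CPM at 0.5% and 3605 to 3850 CPM at 1%, where the mean of KRT8 was 1801 CPM against 15923 CPM in control cells. The part of this in the demethylase results was not tested. At 1% the H3K9 methyltransferase SETDB2 (2.17 ± 0.12, corrected 1.89) and the flavin-dependent demethylase KDM1B (1.85 ± 0.093, corrected 1.63) rose, as did the JmjC gene HSPBAP1 (2.36 ± 0.21, corrected 2.13). Of 6 H3K9 methyltransferases only SETDB2 was called higher and 3 were lower (2 higher and 2 lower after correction). In the list of 3 flavin demethylase genes 1 was higher and 1 lower, and of 18 tested other JmjC genes 9 were higher and 5 lower. EZH2 fell at 0.5% (-1.13 ± 0.068, corrected -1.08) and rose at 1% (1.38 ± 0.066, corrected 1.22). Of the 13 genes of 2-oxoglutarate, succinate and fumarate metabolism 3 rose and 7 fell at 1%. The cytosolic enzyme IDH1, which makes 2-oxoglutarate from isocitrate, rose (2.75 ± 0.10, corrected 2.60) while its mitochondrial relatives IDH3G (-2.38 ± 0.12, corrected -1.95) and IDH2 (-1.25 ± 0.071, corrected -0.97) fell. EGLN2, a HIF prolyl hydroxylase, fell (-1.69 ± 0.13, corrected -1.50). Its list, the 8 dioxygenases of oxygen sensing and DNA, had 3 higher and 3 lower (4 higher and 3 lower after correction).

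In the re-expression experiment, the hairpin with vector lowered 8 members and raised 2, beside 69.2% of the 14302 genes tested (33.9% higher and 35.3% lower). The median was -0.26 for the members and -0.012 for all genes. KDM3B had the largest fall, from 104, 105 and 103 CPM with shCtrl to 59.3, 56.8 and 57.7 CPM with shZHX2 (log2 fold change of -0.85, SE 0.038, adjusted p = 6.79e-33, corrected -0.78). KDM4C followed, from 42.0, 40.5 and 42.8 CPM to 27.3, 27.05 and 24.1 CPM (log2 fold change of -0.68, SE 0.053, adjusted p = 1.17e-19, corrected -0.50). Neither overlapped between groups. KDM3A fell from 109, 108 and 108 CPM to 83.0, 80.5 and 75.7 CPM (log2 fold change of -0.44, SE 0.035, adjusted p = 2.83e-19, corrected -0.14) and KDM5B from 145, 142 and 145 CPM to 113, 108 and 107 CPM (log2 fold change of -0.40, SE 0.032, adjusted p = 9.73e-19, corrected -0.077), both with most of the change gone after correction.

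Smaller falls were those of KDM4B (142, 141 and 141 CPM to 126, 123 and 121 CPM, log2 fold change of -0.20, SE 0.033, adjusted p = 2.69e-07, corrected -0.21), KDM2B (25.6, 25.3 and 23.5 CPM to 21.1, 20.6 and 20.7 CPM, log2 fold change of -0.25, SE 0.065, adjusted p = 4.33e-04, corrected -0.24) and KDM2A (171, 175 and 179 CPM to 156, 160.2 and 158 CPM, log2 fold change of -0.15, SE 0.030, adjusted p = 1.26e-05, corrected -0.063). KDM5A went from 11.5, 11.7 and 9.34 CPM to 8.99, 8.37 and 9.56 CPM with overlapping groups (log2 fold change of -0.27, SE 0.095, adjusted p = 0.00944). Its corrected value was 0.015, and its call was lost without the first or second shCtrl library or the second shZHX2 library (-0.22 to -0.21). KDM4A rose from 18.2, 17.9 and 16.9 CPM to 21.1, 21.3 and 20.8 CPM (log2 fold change of 0.26, SE 0.065, adjusted p = 3.37e-04, corrected 0.27) and KDM6B from 91.9, 89.3 and 92.1 CPM to 107, 107 and 108 CPM (log2 fold change of 0.24, SE 0.035, adjusted p = 7.67e-09, corrected 0.14).

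**Figure D3:**
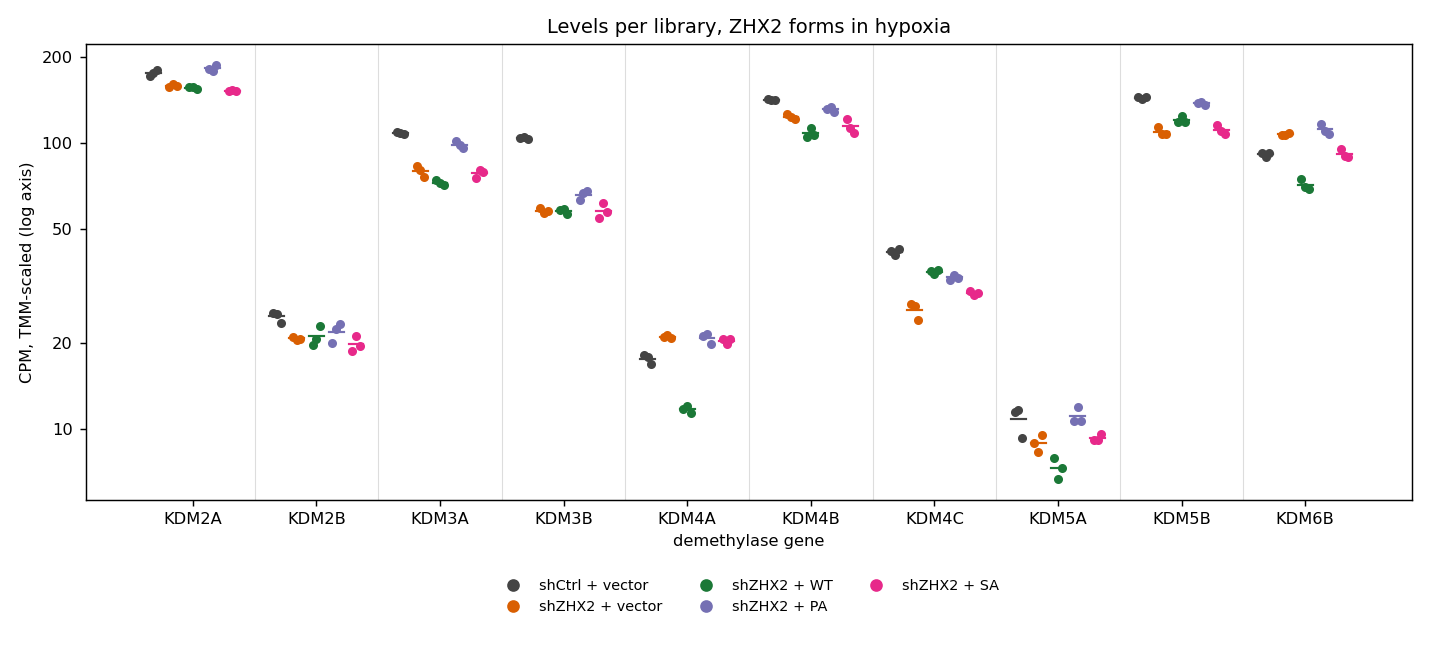
Level of each demethylase gene (CPM with TMM-scaled library sizes, log axis) in the 15 libraries of the re-expression experiment. Points are libraries and bars are group means. KDM4A is lowest with the WT form, KDM4C lies lowest in shZHX2 cells with vector, and KDM3B lies well below shCtrl cells in all 4 shZHX2 groups.

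Re-expression of the WT form in shZHX2 cells raised 2 members and lowered 5 against vector, beside 69.7% of genes (35.1% higher and 34.6% lower). KDM4C rose from 27.3, 27.05 and 24.1 CPM to 35.8, 35.0 and 35.9 CPM (log2 fold change of 0.45, SE 0.055, adjusted p = 1.83e-11, corrected 0.44). It had fallen with the hairpin, and with WT it remained below shCtrl cells (log2 fold change of -0.23, SE 0.052, adjusted p = 9.54e-05, corrected -0.060, adjusted p = 0.337). The fall and the rise share the shZHX2 libraries with vector and are not independent. KDM5B rose a little, to 118, 124 and 118 CPM (log2 fold change of 0.14, SE 0.033, adjusted p = 1.87e-04, corrected 0.021). KDM3B had 58.3, 58.9 and 56.5 CPM with WT, which overlapped with vector (log2 fold change of 0.00073, SE 0.042, adjusted p = 0.988, 95% interval -0.083 to 0.084).

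KDM4A fell most, from 21.1, 21.3 and 20.8 CPM with vector to 11.8, 12.0 and 11.4 CPM with WT, a 1.79-fold fall (log2 fold change of -0.84, SE 0.070, adjusted p = 3.00e-18, corrected -0.74). KDM6B fell from 107, 107 and 108 CPM to 75.0, 70.2 and 69.1 CPM (log2 fold change of -0.59, SE 0.036, adjusted p = 7.43e-25, corrected -0.20). In both genes all WT libraries were below the shCtrl ones too, lower than in the control as well as in vector cells (log2 fold change of -0.58, SE 0.073, adjusted p = 8.37e-11 for KDM4A, log2 fold change of -0.35, SE 0.038, adjusted p = 4.54e-13 for KDM6B, corrected -0.47 and -0.064, the latter with adjusted p = 0.128). KDM4B fell to 105, 113 and 107 CPM (log2 fold change of -0.19, SE 0.034, adjusted p = 1.27e-06), and this turned to 0.19 after correction (adjusted p = 6.75e-07). KDM3A went to 74.0, 72.4 and 71.4 CPM (log2 fold change of -0.13, SE 0.037, adjusted p = 0.00124, corrected -0.33) and KDM5A to 7.94, 6.73 and 7.34 CPM (log2 fold change of -0.29, SE 0.10, adjusted p = 0.00989, corrected -0.47). The call of KDM5A was lost without the third vector library or the second WT library (-0.24 to -0.23). KDM2A (156, 157 and 154 CPM, log2 fold change of -0.025, SE 0.030, adjusted p = 0.473) and KDM2B (19.7, 20.8 and 23.0 CPM, log2 fold change of 0.022, SE 0.067, adjusted p = 0.786) were not called, and after correction both were called higher (0.12 and 0.34), as was KDM3B (0.12). Against shCtrl cells with vector, all 10 members were lower in the WT cells, beside 54.2% of genes called (27.1% lower). The values ran from -0.85 in KDM3B to -0.17 in KDM2A, and 4 of the 10 remained called lower after correction (KDM3A, KDM3B, KDM4A and KDM5A). Of all genes 23.1% were called lower after correction.

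The PA form raised 7 members and lowered 0 against vector, beside 47.6% of genes (24.7% higher and 22.9% lower). KDM4C reached 33.3, 34.7 and 33.8 CPM (log2 fold change of 0.38, SE 0.053, adjusted p = 4.60e-09), KDM5B 138, 139 and 136 CPM (log2 fold change of 0.33, SE 0.032, adjusted p = 7.00e-15) and KDM3A 101, 98.6 and 95.7 CPM (log2 fold change of 0.31, SE 0.035, adjusted p = 4.68e-12). After correction KDM4C stayed at 0.26, KDM5B was at 0.079 and KDM3A at 0.052 (adjusted p = 0.237). KDM5A (10.7, 12.0 and 10.7 CPM, log2 fold change of 0.31, SE 0.092, adjusted p = 0.00348, corrected 0.071), KDM2A (181, 178 and 187 CPM, log2 fold change of 0.20, SE 0.029, adjusted p = 1.44e-08, corrected 0.18) and KDM3B (63.0, 66.6 and 68.1 CPM, log2 fold change of 0.19, SE 0.040, adjusted p = 5.54e-05, corrected 0.17) were also higher. The rise of KDM4B (131, 134 and 128 CPM, log2 fold change of 0.088, SE 0.033, adjusted p = 0.0222, corrected 0.11) was not called without the second or the third vector library or the first or second PA library (0.070 to 0.086). KDM4A (21.2, 21.5 and 19.8 CPM, log2 fold change of -0.013, SE 0.062, adjusted p = 0.885, corrected 0.0021), KDM6B (116, 110.3 and 107 CPM, log2 fold change of 0.054, SE 0.034, adjusted p = 0.187, corrected 0.13) and KDM2B (20.1, 22.4 and 23.4 CPM, log2 fold change of 0.075, SE 0.065, adjusted p = 0.362, corrected 0.10) were not called.

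The SA form raised 1 member and lowered 2 against vector, beside 41.7% of genes (20.2% higher and 21.5% lower). KDM4C rose to 30.4, 29.4 and 29.8 CPM (log2 fold change of 0.20, SE 0.054, adjusted p = 0.00197, corrected 0.15), KDM6B fell to 94.8, 90.3 and 88.9 CPM (log2 fold change of -0.23, SE 0.034, adjusted p = 2.44e-08, corrected 0.026) and KDM4B went to 121, 113 and 108 CPM (log2 fold change of -0.11, SE 0.033, adjusted p = 0.00509, corrected 0.16). Without the third vector library KDM4C was at 0.14 (adjusted p = 0.0624), and without the third SA library KDM4B was at -0.072 (adjusted p = 0.119). The other 7 members were within -0.068 and 0.054 on the log2 scale, with 75.4, 80.4 and 79.1 CPM for KDM3A and 20.7, 19.9 and 20.7 CPM for KDM4A. After correction KDM3A (-0.13, adjusted p = 0.0017) and KDM5B (-0.086, adjusted p = 0.0356) were called lower.

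The forms were also compared with WT directly. PA against WT raised 8 members and lowered 0, beside 66.9% of genes (33.2% higher and 33.7% lower), and SA against WT raised 5 and lowered 2, beside 64.1% (32.1% higher and 32% lower). After correction the counts were 4 higher and 3 lower for PA against WT, with KDM4B now lower, and 4 higher and 5 lower for SA against WT. The corrected shares of all genes were 30.7% higher and 35.1% lower for PA, and 29.8% higher and 33.1% lower for SA. KDM4A was higher with PA (log2 fold change of 0.83, SE 0.070, adjusted p = 6.10e-18, corrected 0.74) and with SA (log2 fold change of 0.80, SE 0.070, adjusted p = 5.31e-17, corrected 0.69), and both forms left it close to the vector level. KDM6B was higher with PA (log2 fold change of 0.64, SE 0.036, adjusted p = 3.91e-27, corrected 0.33) and with SA (log2 fold change of 0.35, SE 0.037, adjusted p = 9.67e-14, corrected 0.23), as was KDM5A (log2 fold change of 0.60, SE 0.10, adjusted p = 1.35e-07, corrected 0.54 for PA and log2 fold change of 0.34, SE 0.10, adjusted p = 0.00227, corrected 0.42 for SA). KDM4C was not called with PA (log2 fold change of -0.068, SE 0.052, adjusted p = 0.252, corrected -0.18, 95% interval -0.17 to 0.037) and was lower with SA (log2 fold change of -0.25, SE 0.053, adjusted p = 2.77e-05, corrected -0.29). SA against PA lowered 8 members and raised 0, beside 40.7% of genes (18.2% higher and 22.5% lower), from -0.33 in KDM3A to -0.18 in KDM4C. After correction 5 were still lower, beside 14.6% of all genes. The hairpin, PA, SA and WT comparisons share libraries, and ZHX2 levels differed between the forms.

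The H3K4 methyltransferases, whose mark KDM5 enzymes remove, are described for the same comparisons. All 7 tested were lower with WT than with vector (median -1.05, -0.68 corrected), all 7 higher with PA than with WT (median 1.00, 0.79 corrected) and all 7 higher with SA than with WT (median 0.72, 0.60 corrected). These 3 comparisons share the WT libraries, and 34.6%, 33.2% and 32.1% of all genes were called in the same directions. All 7 were also lower with WT than in shCtrl cells with vector (median -0.63, -0.37 corrected). Against vector 5 were higher and 0 lower with PA. With SA 0 were higher and 2 lower (2 higher and 2 lower after correction). The hairpin with vector raised 5 and lowered 2. KMT2D, the main writer at enhancers, was at -1.26 ± 0.045 with WT, 1.70 ± 0.043 for PA against WT and 1.34 ± 0.044 for SA against WT. KMT2B, which acts at promoters, was at -1.21 ± 0.051, 1.34 ± 0.050 and 1.03 ± 0.052. Of 17 tested other JmjC genes 4 were higher and 8 lower with WT, led by the ribosomal oxygenase RIOX1 (-2.10 ± 0.16, corrected -1.85). Of 8 dioxygenases of oxygen sensing and DNA 6 rose and 2 fell with WT. Among the risers was EGLN3 (1.16 ± 0.031, corrected 1.23), which had fallen with the hairpin and vector (-0.76 ± 0.031). This fall and rise share the shZHX2 libraries with vector. In the hairpin experiment EGLN3 went the other way and rose with shZHX2. Mitochondrial shares were 0.749% to 0.778% in shCtrl cells, 0.785% to 0.807% with vector, 0.312% to 0.333% with WT, 1.16% to 1.26% with PA and 1.12% to 1.19% with SA. Summed luminal markers were 46387 to 47894 CPM in shCtrl cells, 30978 to 32277 CPM with vector, 44221 to 44891 CPM with WT, 29220 to 29436 CPM with PA and 32477 to 32925 CPM with SA. Fibroblast markers, of which 1 of 5 passed the filter, summed to 17.2 to 21.3 CPM in shCtrl cells, 27.6 to 30.2 CPM with vector, 12.98 to 15.5 CPM with WT, 18.0 to 20.02 CPM with PA and 14.7 to 16.9 CPM with SA. The part of these in the results was not tested. Library size alone moved the median of all genes by 0.15 for PA against vector, by -0.11 for WT against shCtrl, by 0.25 for PA against WT and by -0.15 for SA against PA.

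In the guide experiment sgZHX2 lowered 8 members and raised 1 against sgCtrl, beside 73.1% of the 15781 genes tested (37% higher and 36.1% lower). The tet-on pair lowered 9 and raised 1, beside 69.1% (34.4% higher and 34.7% lower). The median of the members was -0.40 and -0.39, against 0.0085 and -0.0015 for all genes. The fold change rose with GC content across 15667 genes (rho 0.563 for sgZHX2 and 0.468 for teton_sgZHX2). After correction 9 members were lower and 0 higher in each pair. The corrected shares of all genes were 35% lower and 31.3% higher for sgZHX2, and 31.8% lower and 31.9% higher for teton_sgZHX2.

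**Figure D4:**
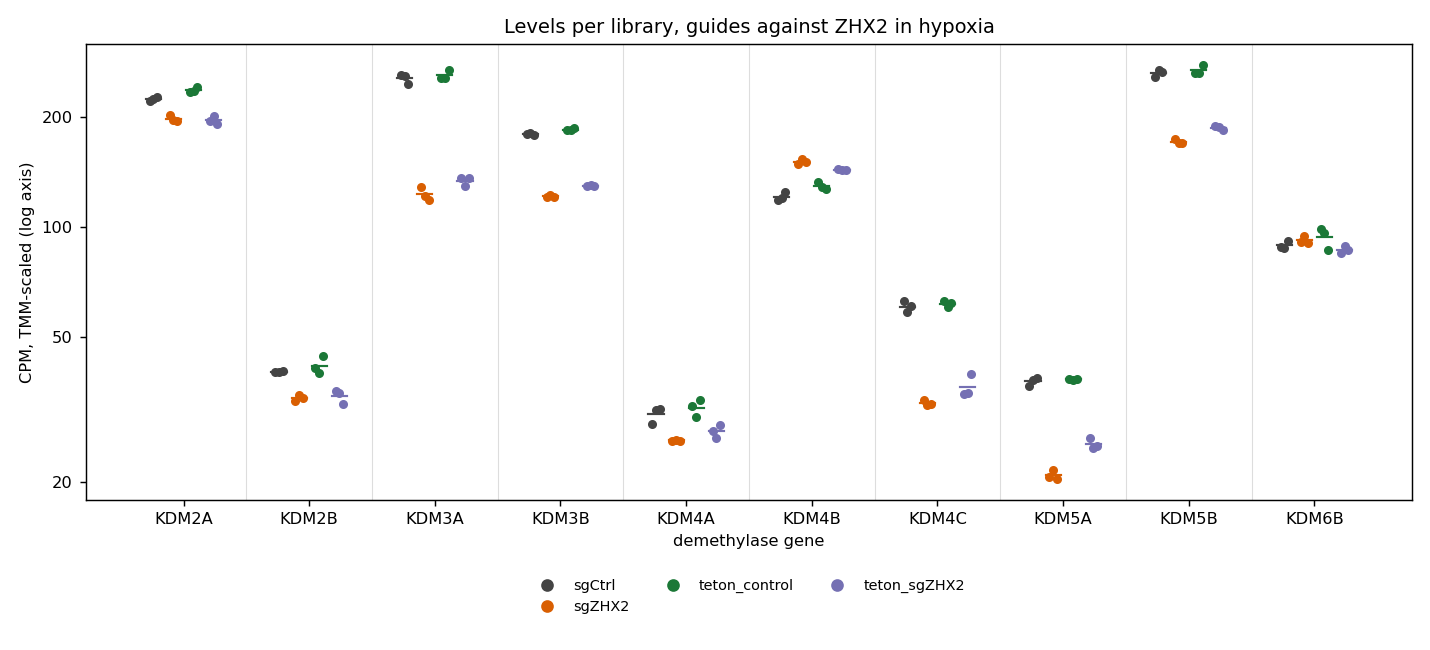
Level of each demethylase gene (CPM with TMM-scaled library sizes, log axis) in the 12 libraries of the guide experiment. Points are libraries and bars are group means. KDM3A, KDM4C and KDM5A lie well below their controls in both guide groups, and KDM4B lies slightly above.

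KDM3A had 260.2, 259 and 246 CPM with sgCtrl and 129, 121 and 119 CPM with sgZHX2. In the tet-on pair it had 255, 255 and 268 CPM with the control and 136, 129.5 and 136 CPM with the guide. Both pairs were widely separated, a 2.07-fold fall (log2 fold change of -1.05, SE 0.031, adjusted p = 1.07e-30, corrected -0.59) and a 1.94-fold fall (log2 fold change of -0.96, SE 0.031, adjusted p = 4.45e-29, corrected -0.58). KDM3B fell from 179, 181 and 178 CPM to 121, 122 and 121 CPM (log2 fold change of -0.57, SE 0.027, adjusted p = 3.50e-23, corrected -0.64), and from 184, 184 and 186 CPM to 129, 130.1 and 129 CPM in the tet-on pair (log2 fold change of -0.51, SE 0.027, adjusted p = 1.56e-21, corrected -0.52).

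KDM4C fell from 62.5, 58.4 and 60.6 CPM to 33.6, 32.5 and 32.7 CPM (log2 fold change of -0.88, SE 0.045, adjusted p = 2.32e-22, corrected -0.73) and in the tet-on pair from 62.7, 60.4 and 61.8 CPM to 35.0, 35.2 and 39.5 CPM (log2 fold change of -0.76, SE 0.043, adjusted p = 2.01e-20, corrected -0.61). Its relative KDM4B went up, from 118, 119.8 and 125 CPM to 148, 153 and 150.2 CPM (log2 fold change of 0.31, SE 0.029, adjusted p = 3.25e-13) and from 132, 128 and 127 CPM to 143, 143 and 143 CPM (log2 fold change of 0.15, SE 0.029, adjusted p = 1.62e-05), but neither rise was left after correction (-0.034, adjusted p = 0.272, and -0.034, adjusted p = 0.271). KDM4A had 28.9, 31.4 and 31.7 CPM and 26.0, 26.1 and 26.0 CPM, a small fall (log2 fold change of -0.24, SE 0.052, adjusted p = 8.89e-05, corrected -0.37) like that in the tet-on pair (32.3, 30.1 and 33.6 CPM and 27.6, 26.4 and 28.8 CPM, log2 fold change of -0.21, SE 0.050, adjusted p = 2.75e-04, corrected -0.28).

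KDM5A fell from 36.7, 38.0 and 38.6 CPM to 20.7, 21.6 and 20.4 CPM (log2 fold change of -0.85, SE 0.049, adjusted p = 2.38e-20, corrected -0.43) and from 38.4, 38.0 and 38.3 CPM to 26.4, 24.9 and 25.1 CPM (log2 fold change of -0.59, SE 0.046, adjusted p = 2.07e-15, corrected -0.25). KDM5B fell from 257, 269 and 265 CPM to 174, 169 and 169.7 CPM (log2 fold change of -0.63, SE 0.028, adjusted p = 1.33e-24) and from 264, 264 and 277 CPM to 188, 187 and 184 CPM (log2 fold change of -0.53, SE 0.027, adjusted p = 9.11e-22), and most of this was gone after correction (-0.14 and -0.068). KDM2A (-0.18 ± 0.027 and -0.27 ± 0.027, corrected -0.26 and -0.27) and KDM2B (-0.24 ± 0.047 and -0.27 ± 0.045, corrected -0.51 and -0.40) fell in both pairs without overlap, KDM2B by more after correction. KDM6B was at 87.9, 87.3 and 91.6 CPM and 90.6, 94.1 and 90.4 CPM, with no call (log2 fold change of 0.044, SE 0.037, adjusted p = 0.285). In the tet-on pair it was at 98.7, 96.2 and 86.5 CPM and 84.8, 88.6 and 86.4 CPM, a small fall with overlapping groups (log2 fold change of -0.12, SE 0.037, adjusted p = 0.00405) that was not called without the first control library (-0.080, adjusted p = 0.0709). After correction it was called lower in both (-0.44 and -0.43). The 2 guide systems were compared directly: 20.3% of genes differed between them, 12% higher and 8.33% lower in the tet-on pair. KDM5A fell less with teton_sgZHX2 than with sgZHX2 (log2 fold change of 0.27, SE 0.068, adjusted p = 0.00349 for the difference), while KDM4B rose less (log2 fold change of -0.17, SE 0.041, adjusted p = 0.00267) and KDM6B was lower (log2 fold change of -0.16, SE 0.052, adjusted p = 0.0214). None of the 3 differences was called after correction (0.18, 0.00012 and 0.0082).

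Among other chromatin enzymes, 5 of 5 H3K36 methyltransferases were lower in each guide pair (medians -0.71 and -0.61). After correction 4 of 5 were lower in each (medians -0.29 and -0.19). ASH1L was at -0.97 ± 0.040 and -0.72 ± 0.038 before correction. Of 18 tested other JmjC genes 7 were higher and 7 lower in each pair. After correction 6 were higher and 8 lower with sgZHX2, and 9 higher and 8 lower with teton_sgZHX2. Before correction the rises of RIOX1 (1.95 ± 0.080 and 1.75 ± 0.079) and of the lysyl hydroxylase JMJD4 (1.96 ± 0.11 and 1.71 ± 0.11) and the falls of JMJD1C (-1.55 ± 0.060 and -1.39 ± 0.056) and of the H3K9 and H3K27 demethylase KDM7A (-1.39 ± 0.052 and -1.21 ± 0.049) led these JmjC genes. The DNA demethylase TET1 fell in both before correction (-1.82 ± 0.19 and -1.49 ± 0.17). Summed fibroblast markers were 26.5 to 29.5 CPM with sgCtrl and 53.5 to 55.2 CPM with sgZHX2, and 28.5 to 31.1 CPM and 48.3 to 48.6 CPM in the tet-on pair, with 2 of the 5 passing the filter and PDGFRA at 0 counts. Nearly all of the sum was COL1A1, at a mean of 27.6 CPM with sgCtrl and 53.7 CPM with sgZHX2. Summed basal markers were 1.41 to 2.21 CPM with sgCtrl and 3.81 to 4.92 CPM with sgZHX2. Mitochondrial shares were 2.51% to 2.71% with sgCtrl and 1.67% to 1.71% with sgZHX2. The part of these in the results was not tested.

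The 4 ways of lowering or targeting ZHX2 in hypoxia can be set side by side, with no test across tables. This is done here for KDM3B, KDM4C, KDM3A, KDM4B, KDM4A and KDM6B. Values of KDM2A, KDM2B, KDM5A and KDM5B are given above. KDM3B was at -0.11, -0.85, -0.57 and -0.51 in the hairpin, hairpin with vector, sgZHX2 and teton_sgZHX2 comparisons (log2 fold change). KDM4C was at 0.74, -0.68, -0.88 and -0.76, and KDM3A at 0.55, -0.44, -1.05 and -0.96, so both were higher in the hairpin experiment and lower in the other 3 comparisons. KDM4B was at -0.60, -0.20, 0.31 and 0.15, lower with both hairpin comparisons and higher with both guides before correction. KDM4A was at 0.87, 0.26, -0.24 and -0.21, higher with the hairpin and lower with the guides. KDM6B was at 0.97, 0.24, 0.044 and -0.12. No member was called in 1 direction in all 4 comparisons before correction. After correction KDM3B was called lower in all 4 (-0.14, -0.78, -0.64 and -0.52). With library size alone its value in the hairpin comparison was 0.13 and called higher (adjusted p = 0.0469).

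**Figure D5:**
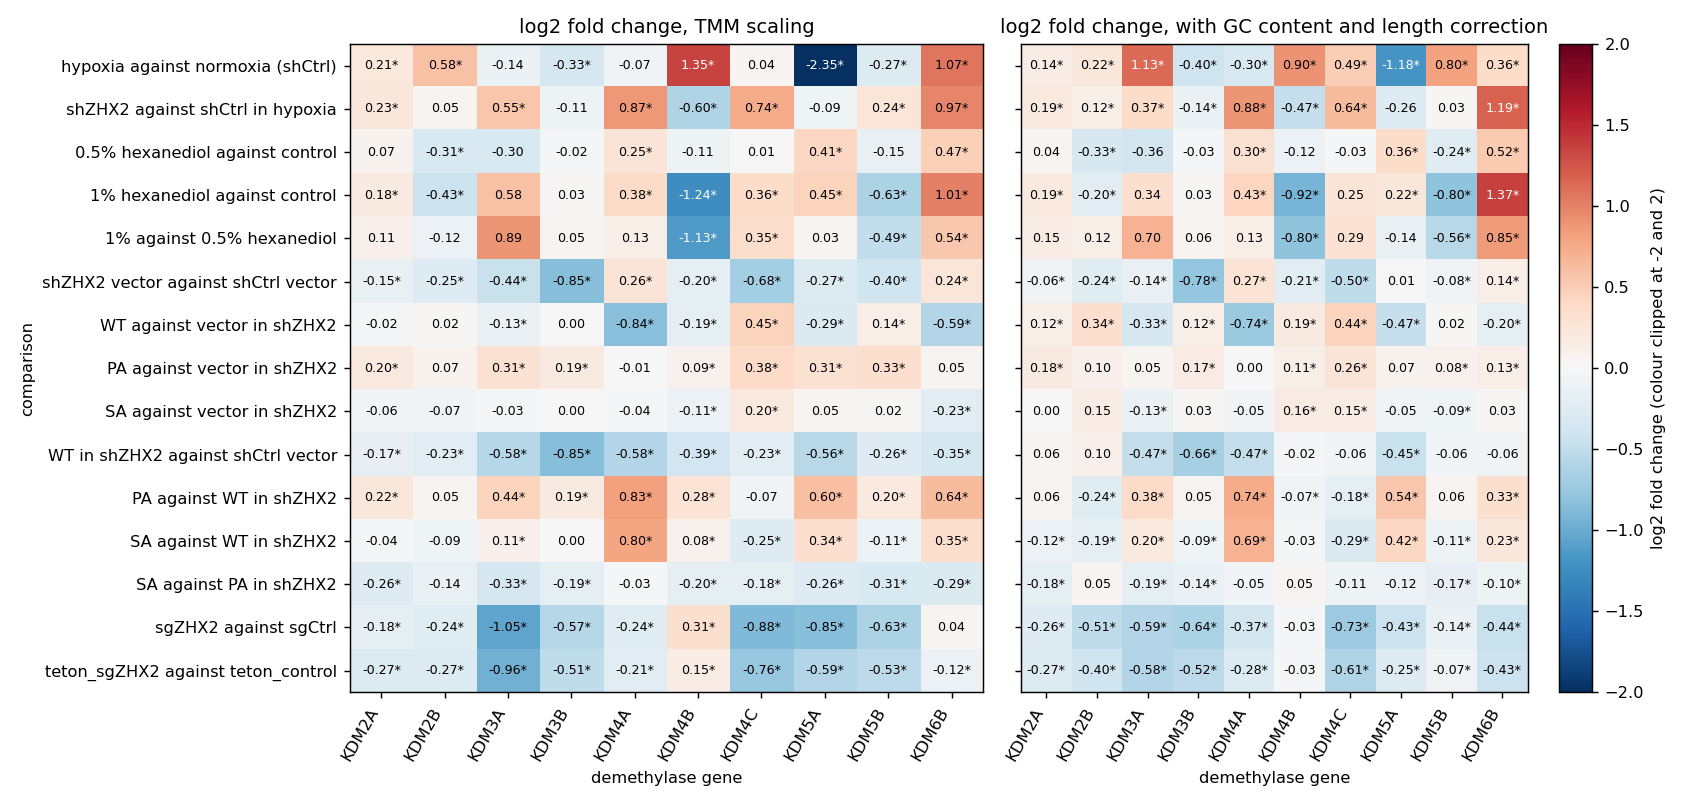
Log2 fold change of the 10 demethylase genes (columns) in 15 comparisons (rows), with TMM scaling on the left and with the GC content and length correction on the right. An asterisk marks an adjusted p under 0.05 in edgeR's quasi-likelihood test, and colour is clipped at the ends of the scale. KDM3A turns from -0.14 to 1.13 in hypoxia with the correction, and the falls of KDM3A, KDM3B, KDM4C and KDM5A with both guides are called on both sides.

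The genes whose level followed each member most closely were ranked by Pearson correlation of group mean log2 CPM, centred within each table, over the 15 groups and 9791 other genes. Groups of a table share their normalisation, and the correlations are a description. These levels were not corrected for GC content or length, and the part of either in the correlations was not tested. The closest genes were DCAF7 for KDM2A (r = 0.94), FUT11 for KDM2B (r = 0.95), PAIP2B for KDM3A (r = 0.92), RCOR1 for KDM3B (r = 0.94), ADO for KDM4A (r = 0.93) and RXRA for KDM4B (r = 0.97). LPIN1 was closest to KDM4C (r = 0.97) and the third closest for KDM3A (r = 0.87), ANKRD17 was closest to KDM5A (r = 0.99), ATRN to KDM5B (r = 0.96) and ZNF592 to KDM6B (r = 0.99). Between members KDM3A and KDM4C had r = 0.87, and KDM4B and KDM5A had r = -0.62.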

How the data were processed

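The authors deposited raw counts per Ensembl gene in 4 tables of polyA RNA libraries sequenced as 150-base read pairs. HISAT2, featureCounts, DESeq2, FastQC and build hg38 are named in the submitters' processing notes, without versions. No annotation or strand setting is named there. Symbols were matched for 60370 of 60624 gene identifiers, and length and GC content from GENCODE release 29 for 58437.

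Each table was fitted separately with all its groups in edgeR 4.0.16 (R 4.3.3): genes were kept by edgeR's default low-count filter, libraries were scaled by TMM (trimmed mean of M values), and a quasi-likelihood test was run with Benjamini-Hochberg adjustment over all genes tested, with calls at an adjusted p under 0.05. SE was taken as log2 fold change over the root of the F statistic, and 95% intervals use the t distribution. CPM use TMM-scaled library sizes. The corrected values add gene-wise offsets from splines (5 degrees of freedom each) on GC content and length. Code was tested on simulated data.

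Members and gene lists were chosen with earlier results of these data known. List genes named are up to 4 with the largest change per list and comparison among those called, with average log2 CPM of at least 1. Alternatives were DESeq2 1.42.0, library size alone, no filter, only the groups compared, leaving out each library, a replicate block, and leaving out the 2 second hexanediol libraries, the last chosen after seeing the data. Same-numbered libraries deviated together in all 3 pairs only between 0.5% and 1% hexanediol (correlations of 0.1077 to 0.3051). Libraries of unlike number reached 0.1609 between these groups. No replicate pair agreed within sampling noise (chi-square per degree of freedom 1.7048 to 25.007, highest in pairs with the second 0.5% hexanediol library).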

Additional observations from a re-analysis of the deposited data

Results flagged for a closer look

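The effect of the ZHX2 guide differed between the tet-on and the other guide pair for 3 of the 10 demethylase genes, by the interaction term of edgeR's quasi-likelihood test with Benjamini-Hochberg adjustment. The same call was made for 20.3% of all genes tested, and none of the 3 was called after the GC content and length correction. The difference, tet-on minus the other on the log2 scale, was 0.27 for KDM5A (adjusted p = 0.00349), -0.17 for KDM4B (adjusted p = 0.00267) and -0.16 for KDM6B (adjusted p = 0.0214). KDM5A fell in both systems, by 0.85 and 0.59, and KDM4B rose in both. The call of KDM6B was lost with DESeq2 (-0.15, adjusted p = 0.0803) and without the first or second sgCtrl library, the second sgZHX2 library, the first or second teton_control library or the first teton_sgZHX2 library (-0.14 to -0.11). KDM5B was also called with library size alone (0.12), and KDM3A and KDM5B were called when single libraries were left out: the third sgCtrl, first sgZHX2 or the third teton_control library for KDM3A (0.12 to 0.14), and the first sgCtrl, first sgZHX2 or the third teton_control library for KDM5B (0.11 to 0.13).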

How the results depend on the processing

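For the 160 fold changes of the 10 genes in 16 comparisons, DESeq2 lost 4 calls and gained 1, no low-count filter lost 2, and fitting only the groups compared lost 1 of 150. A value is counted as turned when its sign changed and it was called before or after, and by this rule none of these turned a value; signs of uncalled values also changed. Leaving out 1 library at a time gave 1020 refitted values, of which 39 lost a call, 9 gained one and none turned by that rule. The fit with the replicate block gained 1 call (KDM3A at 1% against 0.5% hexanediol, 0.91) and changed no other.

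Library size alone turned 6 values by that rule: KDM2A to -0.28 and KDM4C to -0.45 in hypoxia, KDM3B to 0.13 with the hairpin, to -0.097 for WT against vector and to 0.094 for SA against WT, and KDM4C to 0.18 for PA against WT. Counts that moved by over 1.5 times became 2 higher and 7 lower in hypoxia, 0 lower at 0.5% hexanediol, 1 higher for WT against vector, 1 lower for SA against WT and 2 higher in the tet-on difference.

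The GC content and length correction turned 19 values by that rule. In hypoxia KDM3A became 1.13 and KDM5B 0.80. With the hairpin and vector KDM5A became 0.015. For WT against vector KDM2A became 0.12 and KDM4B 0.19, and against shCtrl KDM2A 0.059 and KDM2B 0.096. For SA against vector KDM4B became 0.16, KDM5B -0.086 and KDM6B 0.026. For PA against WT KDM2B became -0.24 and KDM4B -0.073, and KDM4B became -0.026 for SA against WT and 0.048 for SA against PA. KDM4B became -0.034 in both guide pairs and 0.00012 in their difference, and KDM6B -0.44 with sgZHX2 and 0.0082 in the difference. Counts that moved by over 1.5 times became 7 higher in hypoxia, 2 lower with the hairpin, 2 lower at 0.5% hexanediol, 1 higher between doses, 5 higher for WT and 2 higher for SA against vector, 4 lower for WT against shCtrl, 4 higher and 3 lower for PA against WT, 5 lower for SA against WT, 5 lower for SA against PA, 0 higher with each guide and 0 lower in their difference. Among all genes, 32.5% were lower with the hairpin and 17.4% lower at 0.5% hexanediol after correction. Between doses 25.5% were higher, and against vector 34.1% were higher with WT and 13.6% with SA. In the guide difference 1.93% were lower.

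Between doses 1 member was higher with only these groups fitted and 4 without the second libraries, and DESeq2 called 1 lower in the tet-on difference. With single libraries left out, members higher ranged from 3 to 5 at 1% hexanediol, 1 to 3 between doses, 0 to 1 for SA against vector and 1 to 3 in the tet-on difference, and members lower from 1 to 2 for SA against vector and 1 to 2 in the difference. For SA against WT the call of KDM4B was lost without the first or the third WT or first SA library (0.035 to 0.073) and that of KDM3A without the second SA library (0.090). For SA against PA that of KDM5A was lost without the second PA or first or second SA library (-0.25 to -0.18), and KDM2B was gained without the first PA or second SA library (-0.18 and -0.19). The cause was not tested.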
